A study of Mus musculus with 4 samples.

Results

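Tendon fibroblasts 2 is 1 of 13 cell populations that the authors labelled in single cells of mouse Achilles tendons. Its members were taken as the cells that carry this label, which gave 156 of the 1191 cells in the series. Each cell's transcripts were counted as unique molecular identifiers (UMIs), so that copies of a molecule made by PCR count as 1. The cells come from 4 libraries of Achilles tendon from male C57Bl/6 mice aged 6 weeks, with no treatment and no second genotype, and the 4 libraries form 1 group. Library 1 holds 67 of the cells, library 2 holds 2, library 3 holds 78 and library 4 holds 9. Whether each library was made from 1 mouse or from pooled mice is not given in the labels, so the spread between libraries may be technical in part. UMIs of these cells were summed within each library, which gave 780788 UMIs in library 1, 860237 in library 3 and 124140 in library 4. The median cell of these 3 libraries held 9495 to 10723 UMIs. The sum of library 4 rests on 9 cells, in which a single cell gives most UMIs of some genes, and this is stated beside several of those genes. Library 2, with 13927 UMIs from 2 cells, was left out of every sum, since a sum needed 5 or more cells. Levels are given as CPM, a gene's UMIs scaled to a total of 1000000 UMIs in the sum, and 3 values in a row always stand for libraries 1, 3 and 4 in that order. Reads come from the 3′ ends of transcripts, so a CPM does not grow with transcript length. Errors after ± are SDs over libraries, with n = 3 unless stated.

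Tendon is built by fibroblasts that secrete type I collagen and align it into fibres. The cells inside the fibre bundles, called tenocytes, are known for Scleraxis (Scx), a transcription factor of tendon development, and tenomodulin (Tnmd), a membrane protein of mature tendon. Around the bundles lies a looser sheath and connective tissue, and in many tissues the fibroblasts of such loose tissue carry Cd34, a surface sialomucin, and Ly6a, the stem cell antigen 1 of mouse. Such cells are also known as sources of complement proteins, Wnt modulators and dermatopontin. The 5 markers given for the population are Sfrp2, a secreted modulator of Wnt signalling, C3, the central component of complement, Dpt, the collagen-binding protein dermatopontin, Cd34, and Scara5, a scavenger receptor that binds ferritin. In the annotation of the GRCm38 (mm10) assembly these are protein-coding genes, and Sfrp2 lies on chromosome 3 from 83766321 to 83774316 on the plus strand. C3 lies on chromosome 17 from 57203970 to 57228136 on the minus strand, Dpt on chromosome 1 from 164796644 to 164824266 on the plus strand, and Cd34 on chromosome 1 from 194938819 to 194961279 on the plus strand. Scara5 lies on chromosome 14 from 65666403 to 65764826 on the plus strand. Ly6a, on chromosome 15 from 74994877 to 74998031 on the minus strand, shares its cluster with the related Ly6c1 from 75044018 to 75048830, also on the minus strand. Tnmd lies on the X chromosome from 133850980 to 133865577 on the plus strand.

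The authors formed the populations from these same counts, so a p-value between populations would test what made them. Differences between populations are therefore described, with no test, as log2((CPM + 10)/(CPM + 10)) taken within each library and averaged, which understates the change of low genes. A gene is called higher or lower below when it differed at least 2-fold in the same direction in every library compared. Against tendon fibroblasts 1, the larger tendon fibroblast population with 173 cells, 199 of 7043 genes were higher by this rule (2.83%) and 108 were lower (1.53%).

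All 5 markers were higher in tendon fibroblasts 2 than in tendon fibroblasts 1 in each of the 3 libraries. Dpt stood at 1021, 902 and 725 CPM, against 1.59, 8.09 and 0 CPM in tendon fibroblasts 1, a log2 difference of 6.11 ± 0.42. Cd34 stood at 593, 418 and 620.3 CPM, against 7.96, 2.70 and 22.7 CPM. Scara5 stood at 489, 186 and 346 CPM, against 3.18, 0 and 0 CPM. These 3 genes varied little between libraries of tendon fibroblasts 2, by less than 3-fold, and the groups did not overlap. C3 reached 984, 276 and 878 CPM, against 44.6, 45.8 and 7.55 CPM in tendon fibroblasts 1. Sfrp2 reached 78.1, 344 and 1281 CPM, against 1.59, 10.8 and 3.78 CPM. Sfrp2 thus differed between the libraries of tendon fibroblasts 2 themselves, with library 1 low and library 4 high, more than the other markers did. Summed over the 5 markers, the level was 2126 to 3850.5 CPM in tendon fibroblasts 2 and 0 to 67.4 CPM in the 4 libraries of tendon fibroblasts 1, with the 0 in library 2, where tendon fibroblasts 2 were not summed. The marker genes are part of the counts that the populations were made from, so their levels describe the label and do not test it.

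Across all 13 populations, Sfrp2 and C3 were the markers that stood highest in tendon fibroblasts 2 by the widest margin. Sfrp2 averaged 568 ± 632 CPM in tendon fibroblasts 2, and the next population, the immune cells, averaged 5.64 ± 6.81 CPM. C3 averaged 712 ± 382 CPM, ahead of tendon fibroblasts 1 with 24.5 ± 24.1 CPM. Dpt averaged 883 ± 149 CPM, followed by 662 CPM in tendon fibroblasts 3, whose value comes from library 1 alone, and 447 ± 110.01 CPM in bursal fibroblasts. For Scara5 the order was tendon fibroblasts 2 with 341 ± 152 CPM, tendon fibroblasts 3 with 277 CPM and bursal fibroblasts with 33.4 ± 40.4 CPM, and the first and second of these lie within the spread between libraries. Cd34 and Ly6a, by contrast, were not highest in this population. Cd34 averaged 566 ± 159 CPM (n = 4) in endothelial cells 2, 544 ± 109 CPM in tendon fibroblasts 2, 523 CPM in tendon fibroblasts 3 and 462 ± 24.5 CPM (n = 4) in endothelial cells 1. The first and second of these lie within the spread between libraries, and tendon fibroblasts 3, with 1 library, has no spread of its own. Ly6a averaged 1319 ± 332 CPM (n = 4) in endothelial cells 1, 1063 CPM in tendon fibroblasts 3, 1057 ± 208 CPM in tendon fibroblasts 2, 788 ± 257 CPM in bursal fibroblasts and 656 ± 242 CPM (n = 4) in endothelial cells 2. Endothelial cells 3, in 1 library, had 33.3 CPM of Cd34 and 3.70 CPM of Ly6a. Cd34 and Ly6a were thus far higher here than in tendon fibroblasts 1 and endothelial cells 3, and close to their levels in tendon fibroblasts 3. Tnmd, the tenocyte gene, was higher on average in tendon fibroblasts 2, at 657 ± 369 CPM, than in tendon fibroblasts 1, at 275 ± 63.4 CPM (n = 4), although their ranges over libraries overlap. Scx showed the other order, with 15.3 ± 6.27 CPM in tendon fibroblasts 2, from 15, 16 and 1 UMIs, and 59.4 ± 16.2 CPM (n = 4) in tendon fibroblasts 1.

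**Figure D1:**
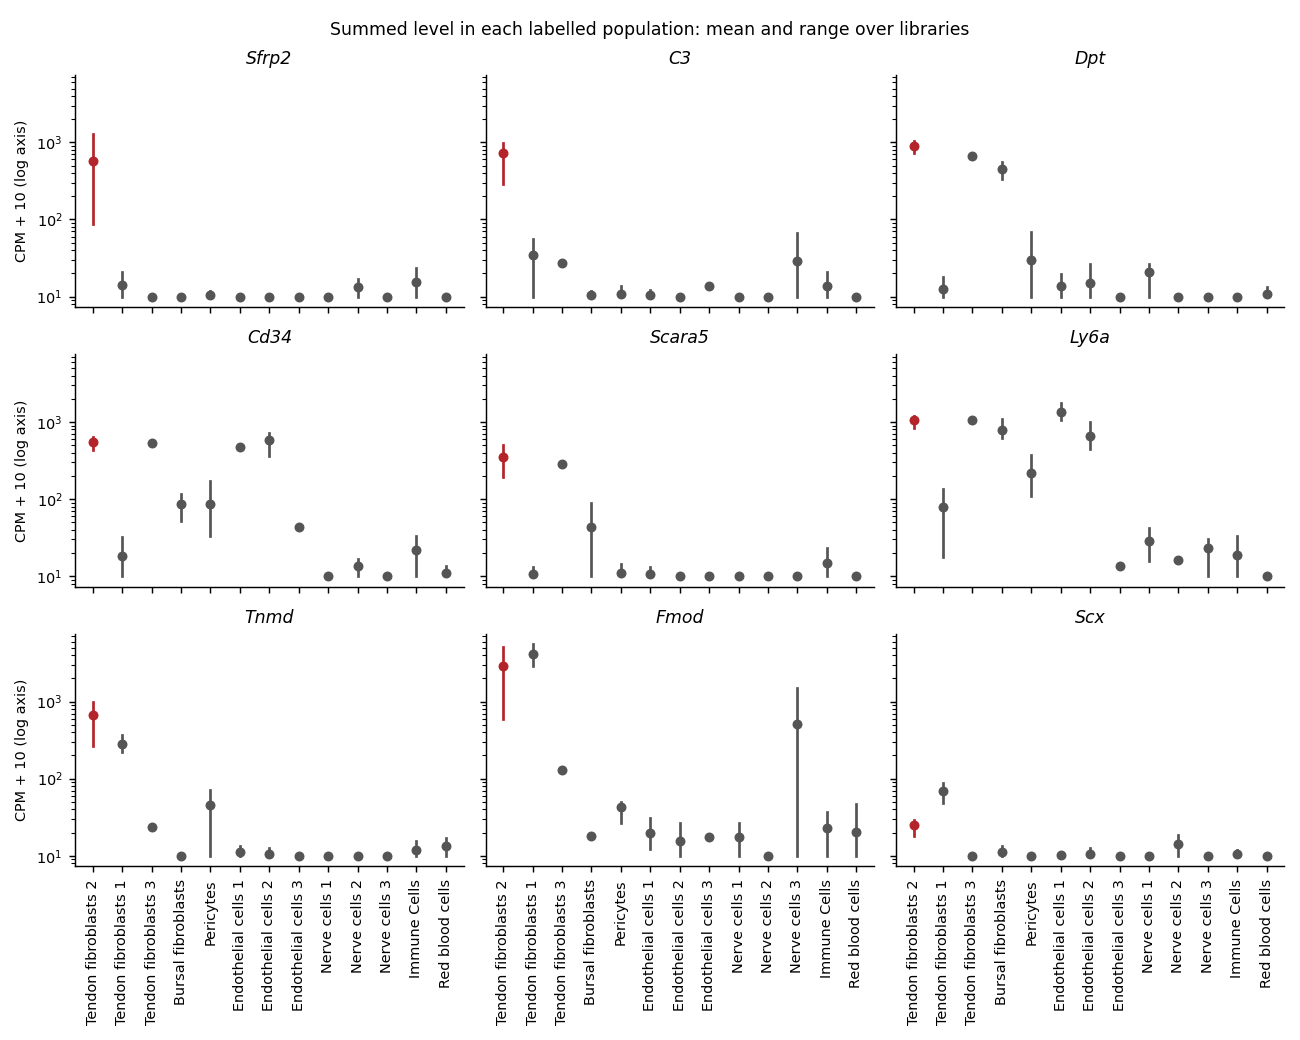
Level of 9 genes in each of the 13 labelled populations, as CPM + 10 on a log axis. Points are means over libraries with 5 or more cells of the population, bars are the range over those libraries, and tendon fibroblasts 2 is in red. Sfrp2 and C3 are highest in the red column by the widest margin, whereas Cd34 has its highest mean in endothelial cells 2 and Ly6a in endothelial cells 1.

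To compare single cells at equal depth, each cell was thinned to 2400 UMIs at random, and 8 of the 156 cells with fewer were left out. Of the 148 cells left, 109 held a Dpt UMI, or 73.6% (exact 95% interval 65.8 to 80.5%). Shares and intervals in this paragraph pool cells of all libraries unless stated, and the intervals leave out the spread between libraries. The share with Dpt was 0.621% in tendon fibroblasts 1 and 2.27% in endothelial cells 1, a type that should lack the gene. Without thinning the same 3 shares were 87.2%, 4.05% and 5.79%, at median depths of 10662, 8824 and 7343 UMIs per cell. By library, 61 of 67, 65 of 78 and 8 of 9 unthinned tendon fibroblasts 2 cells held Dpt in libraries 1, 3 and 4. Dpt was thus the marker found in the largest share of the cells. Ly6a was found in 63.5% of the thinned cells, Cd34 in 52.7%, C3 in 39.9%, Scara5 in 33.1% and Sfrp2 in 23.6%. In tendon fibroblasts 1 the shares were 13% for Ly6a, 0.621% for Cd34, 7.45% for C3, 0% for Scara5 and 1.24% for Sfrp2. Unthinned, Ly6a was found in 76.9% of tendon fibroblasts 2 and 34.7% of tendon fibroblasts 1, and Sfrp2 in 31.4% and 2.31%. Sfrp2 was in 0 of 176 endothelial cells 1 at the same depth, whose exact interval reaches 2.07%. Sfrp2 and C3, the 2 genes with the widest margin over other populations, were thus found in a minority of the thinned cells pooled over libraries. For C3 this depended on library and depth. Unthinned, C3 was in 43 of 67 cells of library 1, 28 of 78 of library 3 and 6 of 9 of library 4.

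The share of cells labelled tendon fibroblasts 2 differed widely between libraries. It was 11.6% of library 1 (67 of 580 cells, exact 95% binomial interval 9.07 to 14.4%), 0.813% of library 2 (2 of 246, 0.0986 to 2.91%), 30.5% of library 3 (78 of 256, 24.9 to 36.5%) and 8.26% of library 4 (9 of 109, 3.85 to 15.1%). The intervals cover counting error only, and the mean was 12.8 ± 12.6% (n = 4). Among tendon and bursal fibroblasts alone the share was 33.2%, 14.3%, 46.7% and 24.3% in libraries 1 to 4, so library 3 was highest and library 2 lowest by either denominator. The 2 cells of library 2 held 8 UMIs of Dpt, 2 of Cd34 and 17 of Tnmd among 13927 UMIs, and none of Sfrp2, C3, Scara5 or Ly6a. At that depth 0 UMIs allow a level of up to 215 CPM (3 counts of the total).

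Tendon fibroblasts 2 had few genes of its own. A gene was said to be led by a population when its mean CPM there was at least 2-fold (with 10 CPM added) that of each other population. By this measure tendon fibroblasts 2 led 34 genes, the fewest of the 13 populations, where red blood cells led 35, tendon fibroblasts 1 led 76 and immune cells 436. Besides Sfrp2 and C3 they include Igf1, insulin-like growth factor 1, with 1544 CPM and 361 CPM in the next population, tendon fibroblasts 3. Aspn, the proteoglycan asporin, with 1119 CPM and 548 CPM in pericytes, and Kera, the proteoglycan keratocan, with 225 CPM and 30.6 CPM in tendon fibroblasts 1, were also led. Without library 1 the count was 86, but then tendon fibroblasts 3 had no sum to be compared with. Without libraries 3 or 4 the count was 35 or 39, and it was 112 with 1 CPM and 14 with 50 CPM added in place of 10.

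Of all other populations, tendon fibroblasts 1 was the most like. The Pearson correlation of log2 levels across genes was 0.836, 0.855 and 0.717 with tendon fibroblasts 1 and 0.80, 0.680 and 0.689 with bursal fibroblasts, within the same libraries. In library 1 it was 0.794 with tendon fibroblasts 3. These are descriptions over 8388 to 9607 genes within a library, and genes are not independent replicates. The sums differed in depth, with 741849 UMIs of tendon fibroblasts 1 and 100363 of bursal fibroblasts in library 3. In library 1 they held 628430 UMIs of tendon fibroblasts 1, 591367 of bursal fibroblasts and 296283 of tendon fibroblasts 3. The part of depth in the order of these correlations was not tested. Of 4836 genes tested against all 3 other fibroblast populations, 21 were higher in tendon fibroblasts 2 than in each of them and 0 were lower than in each, by the 2-fold rule above and in library 1 alone for tendon fibroblasts 3. The 21 are Clec3b, Igf1, Aspn, Fbln2, C4b, C3, Fndc1, Sfrp2, Ptn, Serpina3n, Angptl1, Antxr1, Kera, Postn, Mamdc2, Ifi27l2a, Engase, C1qtnf1, Thy1, Cfb and Ralgds. Clec3b, the plasminogen-binding protein tetranectin, was the most abundant, with 2478, 2931 and 1394 CPM. Igf1 was even across libraries, with 1239.8, 2039 and 1353 CPM, against 70.0, 208 and 125 CPM in tendon fibroblasts 1.

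The gene lists below were drawn up from textbook knowledge, and they were chosen with earlier results of these data known. List members were counted only where they passed a filter on low counts (filterByExpr of edgeR), which a gene can pass through a single population. Each count is therefore a description, and the median log2 difference of all 7043 genes tested against tendon fibroblasts 1 was 0.14. With library sizes scaled by TMM, edgeR's correction for composition, that median was -0.01 and 177 genes were higher and 135 lower. Leaving out library 3 raised the lower count to 175, as the rule then asks for agreement of 2 libraries only, and leaving out library 1 or 4 gave 157 or 153, while 249, 280 and 256 genes were higher without libraries 1, 3 and 4.

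Many genes of loose connective tissue and progenitor-like fibroblasts stood higher in tendon fibroblasts 2 than in tendon fibroblasts 1. Of 24 listed genes, 21 passed the filter, 11 were higher and 0 lower, with a median log2 difference of 1.46. The list shares at least Scara5 with the 5 markers, so this count is not separate from the marker levels above. Ly6a reached 1171, 817 and 1184 CPM, against 126, 83.6 and 56.6 CPM, a log2 difference of 3.48 ± 0.60. Col14a1, a collagen that lies on the surface of type I fibrils, reached 391, 237 and 395 CPM, against 1.59, 1.35 and 3.78 CPM. Mfap5, a microfibril protein, reached 1087, 249.9 and 48.3 CPM, against 15.9, 10.8 and 3.78 CPM, and is far higher in library 1 than in library 4. Cd248, the surface protein endosialin, differed by 3.74 ± 1.36, Gsn, the actin-severing gelsolin, by 1.87 ± 0.68, Clec3b by 2.20 ± 0.72, Pdgfra, the receptor of platelet-derived growth factor, by 1.46 ± 0.44, and Thy1 by 1.32 ± 0.32 on the log2 scale. The other members of the list did not meet the rule. Ly6c1, with 1052, 677 and 829.7 CPM against 420.1, 334 and 223 CPM, missed the 2-fold rule in 1 library, and reads of Ly6a and Ly6c1, related genes of 1 cluster, may not be told apart everywhere. Igfbp6 differed by -0.06 ± 0.17, Col15a1 by -0.38 ± 0.40, Gpx3 by 0.28 ± 0.61 and Pcolce2 by -2.32 ± 1.73. Pi16, a marker of a progenitor-like state in several tissues, was found in library 1 only, in 19 of 67 cells, and in 0 of 78 and 0 of 9 cells of libraries 3 and 4. Thinned to equal depth the Pi16 share was 19.0% in library 1 and 0 in library 3, where the exact interval reaches 4.8%.

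Genes of the tenocyte were mixed, and those of cartilage and mineral matrix were lower. Of the 16 tenocyte genes, all of which passed the filter, 1 was higher and 7 were lower, with a median of -1.39. Kera was the 1 that was higher, with 51.2, 544 and 80.6 CPM against 12.7, 79.5 and 30.2 CPM. In library 4 a single cell gave 60% of its 10 UMIs. Scx itself stood at 19.2, 18.6 and 8.06 CPM against 60.5, 76.8 and 37.8 CPM. Its levels in tendon fibroblasts 2 rest on few counts, with 15, 16 and 1 UMIs. Comp, cartilage oligomeric matrix protein, stood at 798, 3637 and 1957 CPM against 11539.9, 12074 and 17263 CPM, lower in every library. Tnmd, Fmod and Thbs4 passed the rule in neither direction, and each depended on the library. Tnmd stood at 256, 982 and 733 CPM against 364, 255 and 215 CPM, below tendon fibroblasts 1 in library 1 and above it in libraries 3 and 4. Fmod, fibromodulin, a proteoglycan of tendon fibrils, stood at 584, 5114 and 2876 CPM against 3230.3, 5528 and 4837 CPM, low in library 1 and close to tendon fibroblasts 1 in library 3. In library 4 a single cell gave 98.6% of the Fmod and 73.6% of the Tnmd UMIs. Of 12 cartilage and mineral genes that passed the filter among 18 listed, 10 were lower and 0 higher, with a median of -4.21. Spp1, the bone and wound protein osteopontin, stood at 5.12, 19.8 and 0 CPM against 8649, 5563 and 6913 CPM. Clu, the secreted chaperone clusterin, stood at 67.9, 601 and 16.1 CPM against 14200.5, 15274 and 14000.4 CPM. Chad, the cartilage protein chondroadherin, stood at 279, 716 and 169 CPM against 13712, 14535 and 13551 CPM. A single cell gave 74.8% of its UMIs in library 1, and another gave 85.7% in library 4. No value of these 3 genes in tendon fibroblasts 2 came near the lowest library of tendon fibroblasts 1. Acan, the cartilage proteoglycan aggrecan, differed by -4.79 ± 0.26, Ibsp, bone sialoprotein, by -6.96 ± 0.17, Cytl1 by -4.64 ± 1.01 and Angptl7, of the tenocyte list, by -4.25 ± 2.42.

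The matrix genes differed by type of matrix. Type I collagen had no common direction over libraries, with Col1a1 at 23326, 63313 and 43145 CPM against 47351, 42185 and 44384 CPM, but type III collagen was higher in each, with Col3a1 at 18682, 25199 and 18729 CPM against 4203, 3966 and 5675 CPM. Of 10 fibrillar and fibril-associated collagens that passed the filter among 12 listed, 3 were higher, Col3a1, Col5a3 and Col14a1, and 0 lower. Of 17 genes of collagen VI, collagen VIII and basement membrane that passed among 18, 7 were higher and 0 lower. Nid1, the basement membrane linker nidogen 1, stood at 412, 249.9 and 306 CPM against 11.1, 9.44 and 7.55 CPM, and Col4a1, a chain of type IV collagen, differed by 2.88 ± 0.18. The other members that were higher are Col4a2, Col4a5 and the laminin chains Lama2, Lama4 and Lamb1, whereas the type VI collagens Col6a1, Col6a2 and Col6a3 differed by 0.03, 0.11 and -0.48. Of 15 elastic fibre and microfibril genes that passed among 18, 7 were higher and 0 lower, with a median of 1.57. Fbln2, the elastic fibre protein fibulin 2, stood at 1151, 840.5 and 934 CPM against 269, 276 and 177 CPM. Of 11 small leucine-rich proteoglycans that passed among 12, 4 were higher, Aspn, Lum, Ogn and Kera, and Omd was lower. Aspn stood at 2647, 324 and 387 CPM against 12.7, 5.39 and 3.78 CPM, with library 1 well above libraries 3 and 4. In library 4 a single cell gave 60.4% of its UMIs.

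Enzymes of collagen processing went both ways. Of 19 that passed among 20, 3 were higher and 2 lower, with a median of 0.08. Lox, the lysyl oxidase that crosslinks collagen, stood at 174, 322 and 193 CPM against 1442, 2413 and 2398 CPM, and Plod2, a lysyl hydroxylase, differed by -2.52 ± 0.32. Loxl1, a relative of Lox that is known for its part in elastic fibres, differed the other way by 3.31 ± 1.04, as did the procollagen C-proteinase Bmp1 by 1.74 ± 0.16 and its enhancer Pcolce by 1.73 ± 0.14. Of 12 proteases and inhibitors that passed among 20, 3 were higher and 2 lower. Mmp2, the gelatinase of the matrix, stood at 795, 1244 and 709 CPM against 28.6, 52.6 and 18.9 CPM, with a log2 difference of 4.45 ± 0.17 that was among the most even over libraries. Mmp14, which activates Mmp2 at the cell surface, differed by 2.05 ± 0.39 and the protease Adamts1 by 1.44 ± 0.01, whereas the inhibitors Timp3 and Serpine2 were lower, with log2 differences of -2.03 ± 0.20 and -1.82 ± 0.76.

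Most of the complement genes measured stood higher. Of 10 that passed among 16, 7 were higher and 0 lower, with a median of 2.98, or 3.30 with C7 at a lower bound, taken against 3 counts over the summed libraries. The 7 include C3, 1 of the 5 markers, so this count is not separate from the marker levels above. C4b, the fourth component, stood at 1132, 467 and 983 CPM against 12.7, 2.70 and 0 CPM, where its near copy C4a may take or give reads. The proteases C1s1 and C1ra that start the classical pathway differed by 3.84 ± 0.79 and 3.45 ± 0.84, and their inhibitor Serping1 by 3.16 ± 1.0. Cfb, of the alternative pathway, differed by 2.80 ± 0.61. C7, of the membrane attack complex, stood at 66.6, 29.1 and 72.5 CPM and had 0 UMIs in tendon fibroblasts 1. Activators and an inhibitor were thus higher together, and Cd55 and Cr1l, regulators of the cascade, differed by 1.11 ± 1.57 and -0.28 ± 0.22 and met the rule in neither direction.

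Secreted signals differed gene by gene. Cxcl12, a chemokine of stromal cells, stood at 1002, 332 and 1989.7 CPM against 9.55, 2.70 and 18.9 CPM, and in library 4 a single cell gave 55.9% of its UMIs. Cxcl14 differed by 2.14 ± 1.2. Among 15 Wnt pathway genes that passed among 30, 3 secreted frizzled-related proteins were higher, Sfrp2, Sfrp4 with 3.72 ± 2.05 (91.8% of its UMIs in library 4 from 1 cell) and Sfrp1 with 2.20 ± 1.05, whereas the related Frzb and the Wnt inhibitor Wif1 were lower, with -2.83 ± 0.51 and -2.50 ± 1.08. The Wnt antagonists thus split between the populations, and no receptor of the list met the rule. Among 9 genes of the insulin-like growth factor system that passed among 13, Igf1 was higher by 3.51 ± 0.39, and Igfbp5 was lower with -1.75 ± 0.34. Igfbp3, which binds Igf1 in the extracellular space, had 0 UMIs in tendon fibroblasts 1 and stood at 41.0, 412 and 40.3 CPM, so that library 3 was high and libraries 1 and 4 alike. In library 4 a single cell gave 80% of its 5 UMIs. In 19 genes of TGF-beta and BMP signalling that passed among 22, Fst, the activin antagonist follistatin, was higher by 2.51 ± 0.02, Gdf10 was higher by 2.32 ± 0.96 and Id1, a BMP target, was lower with -1.85 ± 0.63. Of 16 immediate early and stress genes, which rise during cell dissociation, 0 met the rule in either direction, with a median of -0.46. Krtdap, a gene known from keratinocytes, stood at 192, 29.1 and 129 CPM and had 0 UMIs in tendon fibroblasts 1. A single cell gave 92% of its UMIs in library 3, and another gave 87.5% in library 4. Its mean was highest in bursal fibroblasts, at 307 ± 231 CPM.

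**Figure D2:**
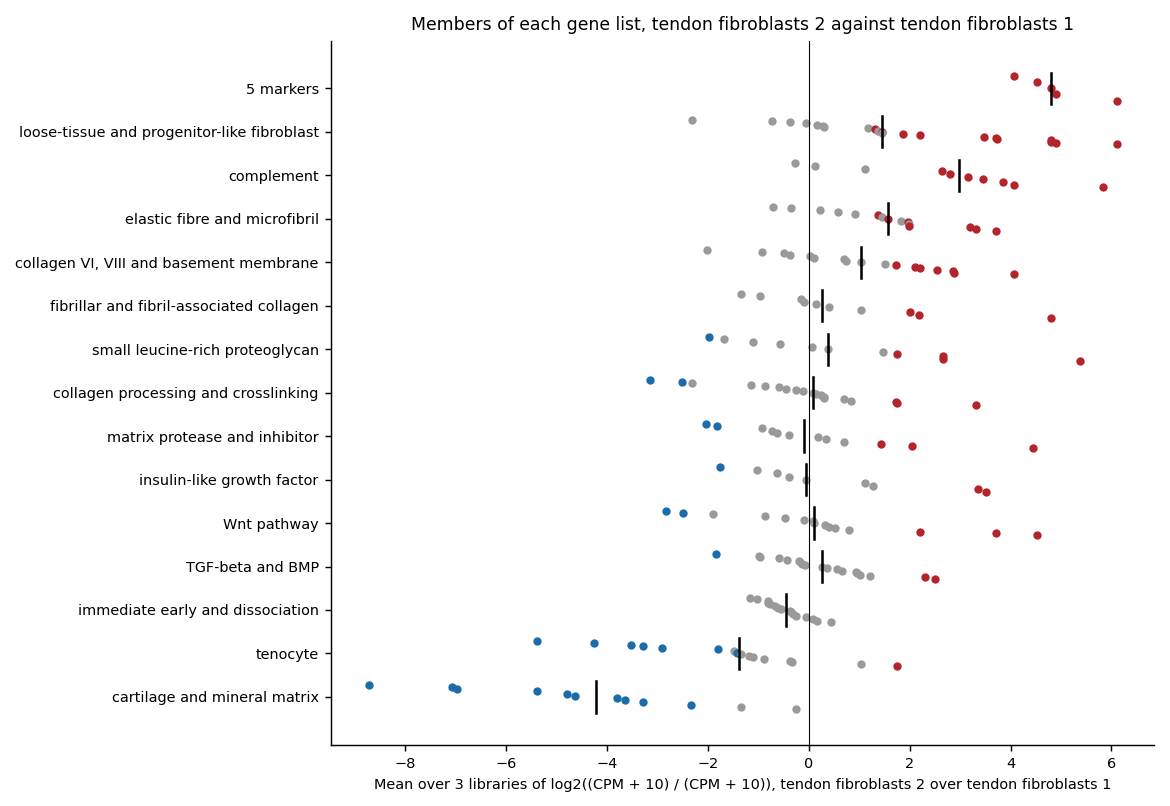
Members of each gene list that passed the filter on low counts, by their mean log2 difference (over 3 libraries) between tendon fibroblasts 2 and tendon fibroblasts 1. Red points were at least 2-fold higher in every library, blue points at least 2-fold lower, gray points neither, and the black line is the list's median, which runs from -4.21 for cartilage and mineral matrix to 4.81 for the 5 markers.

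Bursal fibroblasts, the lining-like cells that make lubricin, were compared next in libraries 1, 3 and 4 with 30, 5 and 5 of their cells. Of 4960 genes tested, 207 were higher in tendon fibroblasts 2 (4.17%) and 71 lower (1.43%), with a median log2 difference of 0.03 over all genes. Most tenocyte genes measured were higher here, whereas 7 of the 16 were lower than in tendon fibroblasts 1. Of 13 that passed among 16, 11 were higher and 1, Ctgf, was lower, with a median of 5.01, or 5.82 with 4 genes at their lower bounds. Fmod differed by 6.85 ± 1.51 and Comp by 6.16 ± 0.70, and Tnmd, at 256, 982 and 733 CPM, had 0 UMIs in bursal fibroblasts. Of 10 fibrillar collagens that passed, 8 were higher, with a median of 2.92, and Col1a1 stood at 4679, 3577 and 762 CPM in bursal fibroblasts against 23326, 63313 and 43145 CPM in tendon fibroblasts 2. All 8 bursal and lining genes of the list were lower, with a median of -4.34. Among them, Clic5, a chloride channel protein, differed by -6.01 ± 1.22 and the protease Htra4 by -4.92 ± 1.35. Enpp2, the lysophospholipase autotaxin, is not on this list and differed by -4.35 ± 0.87. Prg4, the lubricin of gliding surfaces, stood at 3411, 3296 and 7097 CPM in tendon fibroblasts 2 and 192126, 101472 and 100270 CPM in bursal fibroblasts, and in library 4 a single cell gave 85.2% of the former. Apod, the lipid carrier apolipoprotein D, stood at 763, 1546 and 1345 CPM against 5.07, 0 and 0 CPM, and Serpinf1, the secreted factor PEDF, differed by 5.31 ± 0.24. C3, Sfrp2, Cd34 and Scara5 were higher than in bursal fibroblasts as well, with 42.3, 79.7 and 107 CPM of Cd34 there, whereas Dpt at 329.7, 548 and 463 CPM and Ly6a at 673, 608 and 1082 CPM did not meet the rule. Of 10 complement genes, 6 were higher and 0 lower. Without library 4, 416 genes were higher and 150 lower, without library 1, 171 and 143, and without library 3, 293 and 101. With cells that held hemoglobin or macrophage UMIs or were in the top 5% of UMIs left out, only library 1 remained, with 230 and 162.

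Tendon fibroblasts 3 could be compared in library 1 alone, where it has 45 cells, so this comparison has no replicate check. Of 7062 genes, 844 were at least 2-fold higher in tendon fibroblasts 2 (12.0%) and 493 at least 2-fold lower (6.98%), by a rule that here asks for 1 library only. Tenocyte genes were again higher in tendon fibroblasts 2, 12 of 15 with 0 lower and a median of 2.18, against 0.16 over all genes. Tnmd stood at 256 CPM (222 to 294) in tendon fibroblasts 2 and 13.5 CPM (3.68 to 34.6) in tendon fibroblasts 3, with exact Poisson 95% intervals in parentheses that cover counting error only. Comp stood at 798 CPM (736 to 863) and 30.4 CPM (13.9 to 57.7). C3 stood at 984 CPM (915 to 1056) and 16.9 CPM (5.48 to 39.4), and C4b at 1132 CPM (1059 to 1209) and 6.75 CPM (0.817 to 24.4). The intervals of these genes do not overlap. Gpx3, a secreted glutathione peroxidase, stood at 1195 CPM (1119 to 1274) and had 0 UMIs in tendon fibroblasts 3, at least 118-fold higher (against 3 counts). Cd34 at 593 CPM (540.2 to 649.5) and 523 CPM (444 to 612), and Ly6a at 1171 CPM (1096 to 1249) and 1063 CPM (949 to 1187), had overlapping intervals. Tendon fibroblasts 3 had more of several matrix and signalling genes. Smoc2, a secreted calcium-binding matrix protein, stood at 3.84 CPM (0.792 to 11.2) in tendon fibroblasts 2 and 2697 CPM (2513 to 2890.4) in tendon fibroblasts 3, and Ccl11, the chemokine eotaxin, at 3.84 CPM (0.792 to 11.2) and 402 CPM (333 to 481). C2, a complement protease, had 0 UMIs in tendon fibroblasts 2 and 435 CPM (364 to 517) in tendon fibroblasts 3, at least 113-fold lower. Of 17 genes of collagen VI, collagen VIII and basement membrane, 0 were higher and 8 lower, the reverse of the order against tendon fibroblasts 1. Complement genes split, with 4 of 11 higher (C3, C4b, Cfb and Cd55) and 3 lower (C1s1, C2 and C7).

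Against all other cells of the same library summed, 135 of 9035 genes were higher (1.49%) and 539 lower (5.97%). What the other cells are differs by library, so these values move with its makeup as well as with tendon fibroblasts 2. Igf1 at 1239.8, 2039 and 1353 CPM against 80.5, 136 and 114 CPM was among the most even, with a log2 difference of 3.69 ± 0.20. Serpina3n, a protease inhibitor, differed by 3.56 ± 0.49 and Clec3b by 3.52 ± 0.67. Of 12 complement genes that passed, 8 were higher and 1, the membrane-bound Cd59a, was lower. The summed level of markers of other cell types differed by list. Summed over 10 endothelial markers, the level was 16.1 to 43.5 CPM, against a mean of 8980 CPM in endothelial cells 2. The summed level was 11.6 to 23.1 CPM for 10 macrophage and monocyte markers, 54.6 to 90.9 CPM for 8 Schwann and nerve markers, and 17.4 to 40.3 CPM for 7 osteoblast markers. Other lists gave 288 to 507 CPM for 9 pericyte and smooth muscle markers, 91.8 to 249.7 CPM for 7 adipocyte markers and 48.8 to 223 CPM for 3 keratinocyte markers. The 8 chondrocyte markers, which include the tenocyte gene Comp, summed to 891 to 3727 CPM, against 12520.1 to 18244 CPM in tendon fibroblasts 1. The 5 red blood cell genes summed to 44.2 to 419 CPM, and the part of these cell types and of free hemoglobin RNA in the results was not tested. Bursal and lining genes summed to 3404 to 7983 CPM, most of it Prg4, against 108274 to 200047 CPM in bursal fibroblasts. The 15 cell cycle genes summed to 137 to 193 CPM. Without library 1, 209 genes were higher and 665 lower, without library 3, 229 and 788, and without library 4, 183 and 695.

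Between libraries, tendon fibroblasts 2 was less even than tendon fibroblasts 1. Among 1359 genes with a mean of 100 CPM or more, 99 were at least 2-fold higher in library 1 than in library 3 (7.28%) and 59 were lower (4.34%), with an SD of the log2 ratios of 0.70. In tendon fibroblasts 1 the same measure gave 13 and 12 of 1229 genes, with an SD of 0.40. Over the 1051 genes at that level in both, the counts were 59 and 42 in tendon fibroblasts 2 and 5 and 9 in tendon fibroblasts 1. The numbers of cells in these sums are alike, 67 and 78 in tendon fibroblasts 2 and 60 and 83 in tendon fibroblasts 1. No treatment or other label distinguishes the libraries, and the difference between the populations in evenness was not tested. Tenocyte genes were low in library 1, where 9 of 13 were lower than in library 3 and 2 higher, with a median log2 ratio of -2.01, against 0.23 over all genes. The 16 tenocyte genes summed to 5822, 21662 and 9481 CPM in tendon fibroblasts 2 and to 48806 to 61308 CPM in tendon fibroblasts 1. Elastic fibre genes were higher in library 1, 5 of 10 with 0 lower, as were 7 of 20 loose-tissue genes with 2 lower. Fbn1, the microfibril protein fibrillin 1, stood at 1761, 323 and 427 CPM and Eln, elastin, at 313, 24.4 and 16.1 CPM, both highest in library 1, as Mfap5 was.

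The 10 genes with the widest range between libraries, among those with a mean of 200 CPM or more, were Angptl7, Clu, Mfap5, Nov, Rgcc, Sfrp4, Sfrp2, Hbegf, Cd44 and Gfpt2, with ratios of the highest to the lowest library (10 CPM added) from 9.21 to 30.7. Angptl7, an angiopoietin-like secreted protein, stood at 514, 2523 and 72.5 CPM, and Nov, a matricellular protein, at 631, 34.9 and 24.2 CPM. Library 3 was high for Angptl7 and library 1 for Nov. The sum of library 4 rests on 9 cells, and single cells gave much of it. One cell gave 352 of 357 Fmod UMIs in library 4 (98.6%) and 67 of 91 Tnmd UMIs, and without it Fmod stood at 48.9 CPM and Tnmd at 235 CPM. Another cell of library 4 gave 85.2% of the Prg4, 91.5% of the Rgcc, 88.5% of the Hbegf, 91.2% of the Cd44 and 82.3% of the Gfpt2 UMIs. With that cell Rgcc stood at 38.4, 53.5 and 757 CPM and Hbegf at 104, 116 and 1192 CPM, and without it the value of library 4 was 90.04 CPM for Rgcc and 191 CPM for Hbegf. Cd44 stood at 429, 69.7 and 822 CPM, or 101 CPM in library 4 without the cell, and Gfpt2 at 188, 45.3 and 499 CPM, or 124 CPM. The high values of library 4 for these 4 genes thus rest on 1 cell, which also held 87.8% of the Cd55 and 95.7% of the Ccl2 UMIs of library 4. Sfrp2 in library 4 was spread over more cells, with 4 of 9 cells holding it, and its top cell gave 35.8%.

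**Figure D3:**
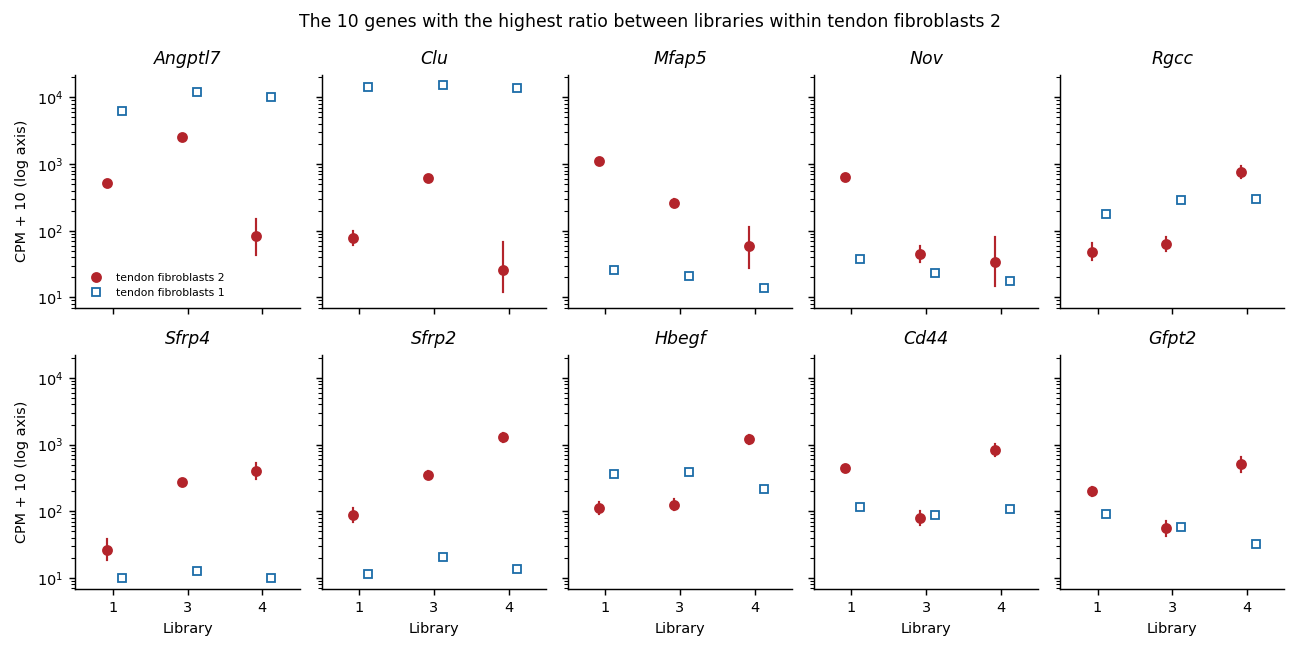
The 10 genes with the widest range between libraries in tendon fibroblasts 2 (red points, CPM + 10 on a log axis, with exact Poisson 95% intervals that cover counting error only), beside their level in tendon fibroblasts 1 (open blue squares). Angptl7 and Clu are highest in library 3, Mfap5 and Nov in library 1, and Rgcc, Hbegf and Gfpt2 in library 4, where a single cell gives most of their UMIs.

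Single cells differed within libraries too. Cells with and without Tnmd were found in each library: at 2400 UMIs per cell, 22.2% of the cells of library 1, 72% of library 3 and 37.5% of library 4 held Tnmd, and 37.3% of tendon fibroblasts 1. Bursal fibroblasts held it in 0 of 37 cells, and in endothelial cells 1, which should lack it, the share was 0.568%. Unthinned, 59.0% of tendon fibroblasts 2 and 59.5% of tendon fibroblasts 1 held Tnmd. Fmod was in 12.7% of the thinned cells of library 1 and 64% of library 3. Tnmd and Ly6a transcripts did occur together in single cells: in library 3, 24 of 75 thinned cells held both, 30 held Tnmd only, 16 Ly6a only and 5 neither. In library 1, 7 of 63 held both, 7 Tnmd only, 41 Ly6a only and 8 neither. Tnmd and Fmod went together in library 3, with both in 41 cells, Tnmd only in 13, Fmod only in 7 and neither in 14. Cd55, a cell surface inhibitor of complement chosen here after its values were seen, was rarely found in a cell with Tnmd, with both in 0 of 63 cells of library 1 (14 with Tnmd only and 22 with Cd55 only) and in 2 of 75 of library 3 (52 and 5). Sfrp2 and C3 occurred together in 11 cells of library 3, with 12 cells holding Sfrp2 only and 11 C3 only, and in 7 cells of library 1, with 1 and 25. At this depth a gene of low level is missed in many cells that make it, so these counts bear on cells with a UMI and not on cells that express the gene.

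**Figure D4:**
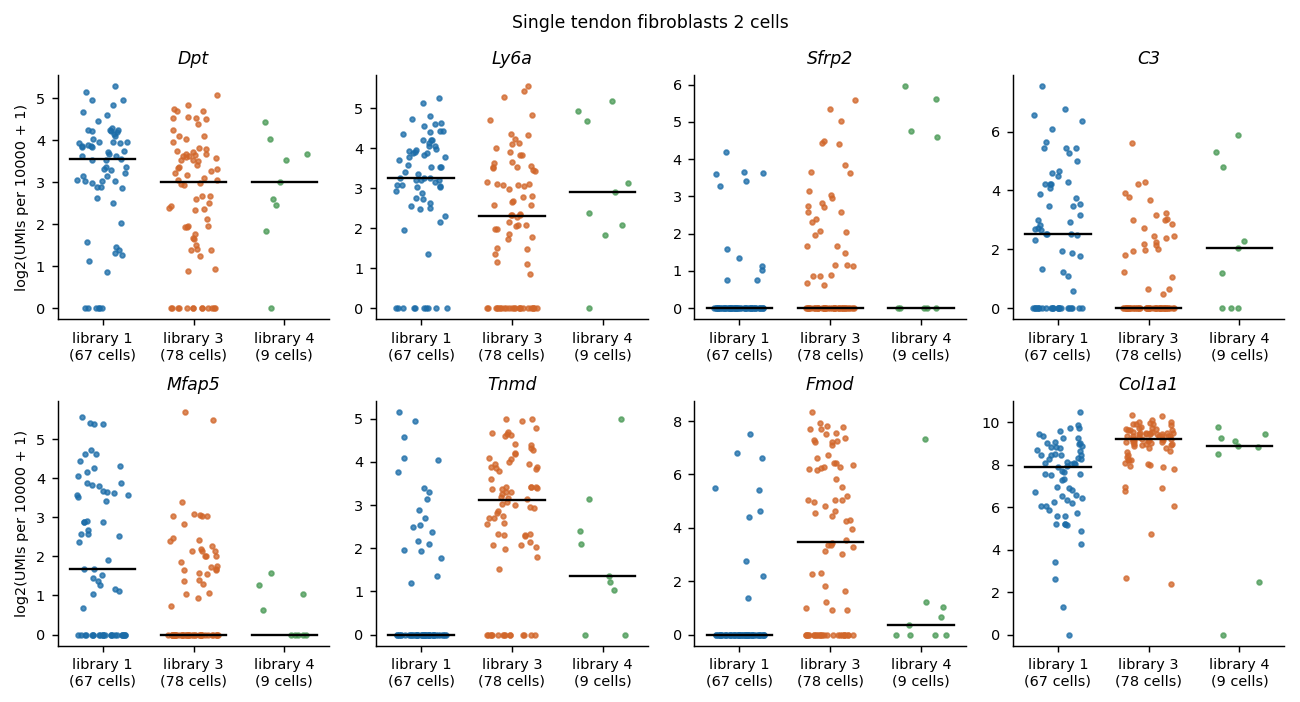
Level of 8 genes in each cell of tendon fibroblasts 2, as log2(UMIs per 10000 + 1), by library, with the median as a black line. Dpt is found in most cells of each library, Sfrp2 and C3 in a part of them, and Fmod and Tnmd in more cells of library 3 than of library 1.

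Over 477 genes with a mean of 0.5 or more thinned UMIs in libraries 1 and 3, the variance over the mean between cells had a median of 1.48, where counting alone gives 1, and was above 2 for 28.5% of them. The highest values belonged to Gm42418, a gene model that overlaps ribosomal RNA, with 103, then Col1a1 with 38.3, Prg4 with 28.8 and Col3a1 with 27.2. Next in order among the top 15 were Gsn, Col1a2, Malat1, Fmod, Dcn, Igfbp5, Angptl7, Fn1, AC160336.1, Crip1 and Thbs4, and 13 of the 15 were also among the top 15 without thinning. The 15 hold 3 collagen genes and the proteoglycans Fmod and Dcn.

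To ask which genes go with Tnmd among these cells, the cells of each library were split at the median of Tnmd UMIs per 10000, and the sums above and below were tested with edgeR's quasi-likelihood test with the library as a block. The label puts all these cells in 1 population, so this contrast is not the one that made it. Libraries 1 and 3 had 5 or more cells on both sides, with 21 cells above and 46 at 0 in library 1 and 39 and 39 in library 3, where 9 cells lay within 1 UMI per 10000 of the cut. A cut in a range defines no cell type, and the median depth was 8367 UMIs above and 11646 below in library 1, and 11226 and 9249 in library 3. Of 5713 genes tested, 0 passed an adjusted p of 0.05 (0%), with a smallest adjusted p of 0.478 and 194 genes above and 159 below at an unadjusted p under 0.05. With 2 sums in each of libraries 1 and 3 and the library as a block, the test has 1 residual degree of freedom. The 0 calls therefore do not show that no gene differs. With DESeq2, 2 genes passed in each direction, Mfap4 and Kera above and Procr and Cd55 below, and after thinning each cell, 25 above and 17 below of 1336 genes. Those called with thinned cells include Fmod, Chad, Thbs4, Kera, Cilp2, Col11a1, Sfrp2, C3 and Gpx3 above, and Ly6a, Cd248, Mfap5, Fbn1, Pcolce2 and Procr below. Gpx3, of the loose-tissue list, thus went with Tnmd there, with a log2 difference of 1.37. As a description, 34 genes were at least 2-fold higher above the cut in both libraries (0.595%) and 55 lower (0.963%). Fmod stood at 2225 against 50.9 CPM in library 1 and 7252 against 2649 CPM in library 3, and Chad at 1102 against 11.9 CPM in library 1 and 1108 against 264 CPM in library 3. In library 1 a single cell above the cut gave 74.8% of the Chad and 34.9% of the Fmod UMIs of the population. Cd55 went the other way, with 36.6 against 623 CPM in library 1 and 10.8 against 108 CPM in library 3, as did Mfap5 with 308 against 1341 CPM in library 1 and 132 against 387 CPM in library 3. Of the lists, 5 of 14 tenocyte genes and 4 of 8 cartilage genes were on the Tnmd side, with 0 on the other, and 4 of 21 loose-tissue genes, Scara5 and Ly6c1 among them, were on the other, with 0 on the Tnmd side. The tenocyte and cartilage lists share at least Chad, so their counts are not separate. None of the list members passed the adjusted test of edgeR on unthinned cells.

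The same split was made on the summed UMIs of Cd34 and Ly6a with both left out of the counts. There were 33 cells above and 34 below in library 1 and 39 and 39 in library 3, with 8 cells within 1 UMI per 10000 of the cut in each. Median depth moved with this split, with 13738 UMIs above and 8522.5 below in library 1 and 12435 and 8731 in library 3. Again 0 of 5420 genes passed (0%), with a smallest adjusted p of 0.121 and 182 genes above and 191 below at an unadjusted p under 0.05. This test too has 1 residual degree of freedom, so the 0 calls do not show that no gene differs. With DESeq2, 6 genes passed above and 9 below, and with thinned cells, which have equal depth, 14 and 28 of 1296. The thinned calls include Ly6c1, Cd248, Mfap5, Fbn1, Dpt and Tgfbr2 above, and Fmod, Chad, Thbs4, Kera, Cilp2, Tnmd, Col11a1 and Lox below. At least 2-fold in both libraries were 34 genes above (0.627%) and 34 below (0.627%). Ly6c1 stood at 1542 against 433 CPM in library 1 and 1049 against 127 CPM in library 3, and Fmod at 32.1 against 1286 CPM in library 1 and 2129 against 9549.7 CPM in library 3. A single cell gave 34.9% of the Fmod UMIs of library 1. Reads of Ly6c1 and Ly6a may not be told apart everywhere, so Ly6c1 may not be independent of this split. On the Cd34 and Ly6a side were 5 of 20 loose-tissue genes and 3 of 16 elastic fibre genes, with 0 on the other. On the other side were 5 of 15 tenocyte genes, Fmod, Chad, Kera, Thbs4 and Cilp2, and 4 of 8 cartilage genes, with 0 on the Cd34 and Ly6a side. The tenocyte and cartilage lists share at least Chad. In both splits the tenocyte genes that were 2-fold apart in both libraries thus lay opposite the loose-tissue genes that were. Most members of both lists met this in neither direction. No gene of these lists passed an adjusted p of 0.05 in edgeR's test on unthinned cells. The splits are not the same cells reversed: in library 3, 16 cells were above both cuts, 23 above that of Tnmd only, 23 above that of Cd34 and Ly6a only and 16 below both, and in library 1 the counts were 4, 17, 29 and 17.

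**Figure D5:**
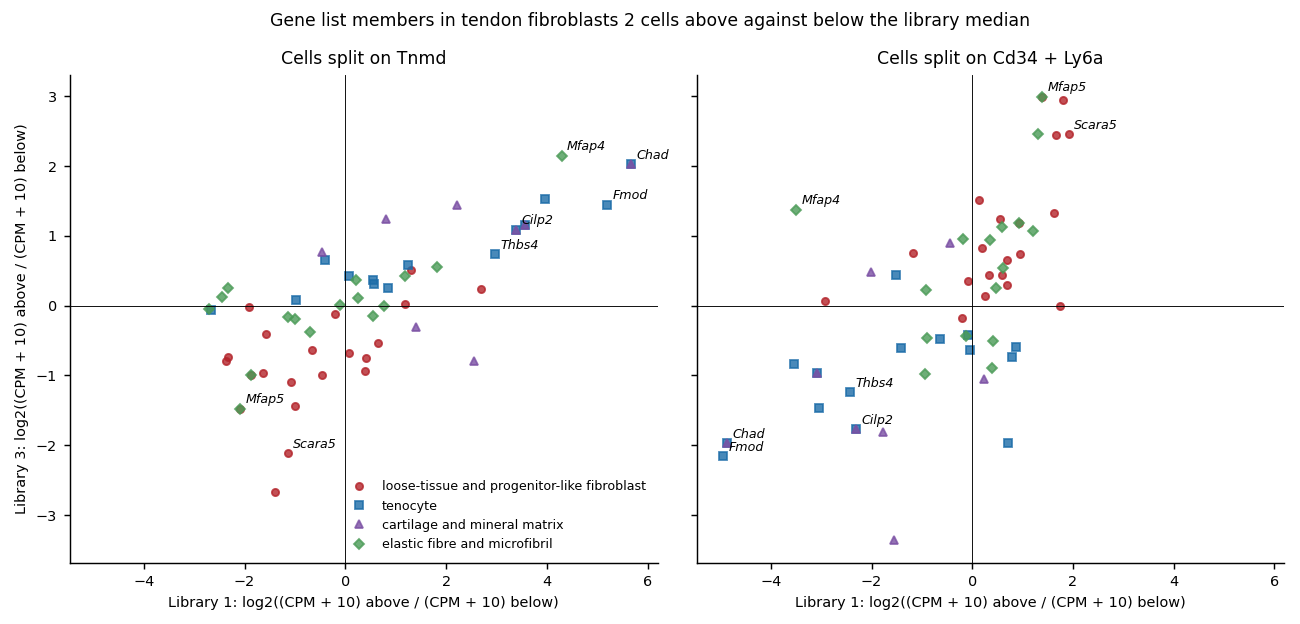
Members of 4 gene lists by their log2 ratio between cells above and below the library median of Tnmd (left) and of Cd34 and Ly6a (right), with library 1 on the horizontal and library 3 on the vertical axis. Tenocyte and cartilage genes such as Fmod and Chad lie to the upper right for Tnmd and to the lower left for Cd34 and Ly6a, with loose-tissue genes such as Scara5 opposite.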

How the data were processed

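The deposited counts are raw UMI counts per gene and cell, made by the authors with the version 3 Chromium 3′ kit per the labels' protocols. The submitters' processing notes name Cell Ranger, Seurat 2.3.4, R 3.5.2 and the mm10 build, without saying which step each served. Population names were taken from the authors' deposited annotation. Of 15750 gene entries, 4 under repeated names were left out with 0.0186% of the UMIs. No cell was removed and no doublet caller was run, and 0 barcodes were shared between libraries. Counts were summed per library and population with 5 or more cells. Comparisons between populations used filterByExpr, 10 CPM added and a 2-fold rule in every library, with no test. The splits used edgeR 4.0.16 in R 4.3.3 (limma 3.58.1) with TMM and Benjamini-Hochberg adjustment, and DESeq2 1.42.0 as an alternative, and the code was tested on simulated data. Cells of the same library share it, so it was the block. The members, the gene lists and the rules were chosen with earlier results of these data known. Named were the 5 markers, list members called or among the 5 highest of their list, the 10 called genes with the largest differences each way at 100 CPM or more, the 10 widest between libraries and the 15 most variable between cells, and others are named only as values. Intervals are exact (Poisson or Clopper-Pearson, 95%). Coordinates are from the GENCODE annotation of mm10. In the thinning, 114 of all 1191 cells were too shallow. Leaving out libraries, cells or filters, other pseudocounts, folds and scalings were tried.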

Additional observations from a re-analysis of the deposited data

How the results depend on the processing

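Direction was followed under the settings tried for the markers, the named genes with the largest differences and some others. Among these, no value that met the 2-fold rule changed direction beyond the margins given below. The other genes that met the rule were not followed. Against tendon fibroblasts 1 the median over all genes passed from 0.14 to -0.01 with TMM scaling or DESeq2 size factors. Of the named genes, Col1a1 against tendon fibroblasts 1 and Mkx against all other cells, which did not meet the rule, changed sign under 1 or more settings. The counts of genes moved with the rule that defines them. Against tendon fibroblasts 1, 75 genes were higher and 50 lower with 50 CPM added, 372 and 233 with a fold of 1.5, and 100 higher with thinned cells, and leaving out each library in turn gave 249 to 280 higher and 153 to 175 lower. Against bursal fibroblasts the counts were 113 and 43 with 50 CPM, 318 and 167 with a fold of 1.5, 312 higher with no filter and 162 lower without cells holding hemoglobin or macrophage UMIs or of the top 5% of UMIs, and leaving out libraries gave 171 to 416 and 101 to 150. Against all other cells they were 203 higher with 1 CPM, 71 and 138 with 50 CPM, 297 and 887 with a fold of 1.5 and 211 lower with thinned cells, and 183 to 229 and 665 to 788 without each library. Against tendon fibroblasts 3 they were 1278 higher with 1 CPM, 224 and 201 with 50 CPM, and 392 and 256 with thinned cells. The genes led numbered 112 with 1 CPM and 14 with 50 CPM, and 34 to 86 without each library, the 86 with no sum of tendon fibroblasts 3 to compare. The mean share was 29.6% among tendon and bursal fibroblasts, and 6.87 to 16.8% without each library. For the Tnmd split, DESeq2 called 2 above and 2 below, no filter 79 and 80, the upper against the lower tercile of cells 3 above, thinned cells 25 and 17, and libraries with 4 or more cells a side 1 and 4. For the Cd34 and Ly6a split, DESeq2 called 6 and 9, no filter 72 and 69, terciles 47 and 47, thinned cells 14 and 28, 4 or more cells a side 8 and 8, and cells of 5000 or more UMIs 14 and 15. The last 2 settings and leaving out libraries for the share were chosen after seeing the data. Fewer genes are tested with thinned cells and fewer libraries must agree when 1 is left out, and for the other settings of the splits the cause was not tested. Without the replicate block both splits gave 0 genes in either direction. Leaving out a library from a split was not run as a test, since 1 library has no residual degrees of freedom. Of the values of single named genes, 258 stayed within 1 SD and 46 moved further against tendon fibroblasts 1, 269 and 40 against bursal fibroblasts and 262 and 39 against all other cells. Against tendon fibroblasts 3, where 1 library gives no SD, a fixed margin on the log2 scale was used. There, 47 values stayed within this margin and 48 did not. With 9 cells in library 4 and 5 bursal fibroblasts in libraries 3 and 4, low genes there rest on few UMIs.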
